A study of Homo sapiens with 2 samples.

Results

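The RNA methylation machinery was followed through 10 genes, chosen by name: the N6-methyladenosine (m6A) writers METTL3, METTL14 and WTAP, the readers YTHDF1, YTHDF2, YTHDF3 and YTHDC1, the erasers FTO and ALKBH5, and METTL1, which writes 7-methylguanosine (m7G). A probe set, the group of probes that gives 1 value on the array, was assigned to a gene when the platform annotation gave it that single symbol. By this rule 26 probe sets of 9 of the 10 genes were found, among 18132 genes with a single symbol. YTHDF2 had no probe set under this rule and was not analysed here. SW480 cells, a human line from a colorectal cancer, were lysed and the RNA that an antibody against QKI brought down was measured on 1 PrimeView array of cells given negative control siRNA (siNC) and 1 array of cells given siRNA against the long noncoding RNA NONHSAT136151 (siLnc). Both cultures received 100 pmol of siRNA and were harvested after 48 h. The comparison asks how silencing NONHSAT136151 changed the amount of each mRNA that came down with QKI.

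m6A is the commonest internal mark of mRNA. It is placed in the nucleus by a complex in which METTL3 catalyses the transfer, METTL14 holds the RNA and WTAP brings the pair to nuclear speckles. It is bound by proteins with a YTH domain, which steer splicing, export, translation and decay, and it can be removed by the dioxygenases FTO and ALKBH5. METTL1 works with WDR4 and methylates guanosine in tRNA and also inside mRNA. QKI is an RNA-binding protein of the STAR family that has been described as a reader of internal m7G, so the genes are listed here both as possible mRNA partners of QKI and as the enzymes and readers of marks on such partners. All values below are amounts of mRNA in the precipitate and not amounts or activities of the proteins.

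Of the siRNAs that the study lists, si-NON-1 and si-NC are shown because the 2 arrays are labelled by siRNA treatment. Each is printed from 5′ to 3′ as the study lists it, and the capitals mark the final pair of T bases of si-NON-1. The second siRNA in that list, si-NON-2, carries the same letters as si-NC. The sample labels name the target and not the siRNA, so it is not known here which of the listed siRNAs the siLnc culture received. NONHSAT136151 had no probe set of its own name, so the knockdown was not checked on these arrays.
si-NON-1: uaggcaugguuagcguggucggaauTT
si-NC: ttcttacacaatagccagg

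Each value is a log2 signal, and a difference is the siLnc signal minus the siNC signal, so that 1 stands for a 2-fold higher amount in siLnc. There was 1 array per condition, so there is no error over replicates, no p-value is given and no difference has been checked in a second sample. The range over the probe sets of a gene is given instead. These probe sets read the same RNA at different stretches and are not replicates. The arrays had median signals of 3.32 (siNC) and 3.29 (siLnc), and the robust SD of the differences over 49292 probe sets was 0.32. To judge which signals stand clear of background, 40 genes made by cells of other organs (liver, muscle, neurons and the like) were used. Of their 101 probe sets, 95% lay below 4.64 in siNC and below 4.26 in siLnc, although TNNI3 reached 7.51 in siNC. These 2 values are called the background limits. Below these limits a difference is measured against background and its size is not exact. All 18 probe sets of the control RNAs added at hybridization were lower in siLnc, with log2 differences from -1.30 to -0.20. The control probe sets for lys, phe, thr and dap were lower in siLnc as well, from -0.60 to -0.08. Those for trp lay below the background limits, with differences from 0.00 to 0.10. The 5′ control probe sets of GAPDH and ACTB differed by 0.47 and 0.34, and the 3′ ones by 0.19 and 0.05. The part of any of these in the values below was not tested.

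None of the 9 measured genes was 2-fold higher or lower in siLnc as the mean over its probe sets. Over all genes the shares past these thresholds were 0.651% (higher) and 0.121% (lower). Of the 26 probe sets, 1 was at least 2-fold higher, a METTL3 probe set, and 0 were at least 2-fold lower, against 1.51% and 0.185% of all probe sets. The gene means ran from -0.22 for ALKBH5 to 0.72 for METTL3, with a median of 0.21, and 8 of the 9 lay above 0. The median was 0.08 with the brightest probe set of each gene and 0.07 over the 8 genes with probe sets above the background limits. WTAP and METTL1 were among those 8 by 0.06 and 0.05 and lay below 0 after cyclic loess (-0.08 each) and quantile normalization (-0.09 and -0.13). Over all genes the median was -0.06 and 39.2% lay above 0. Differences varied with signal over the array, and among the 7290 genes whose mean signal fell in the same band (3.45 to 6.91) the median was 0.05 and 54.4% lay above 0.

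**Figure D1:**
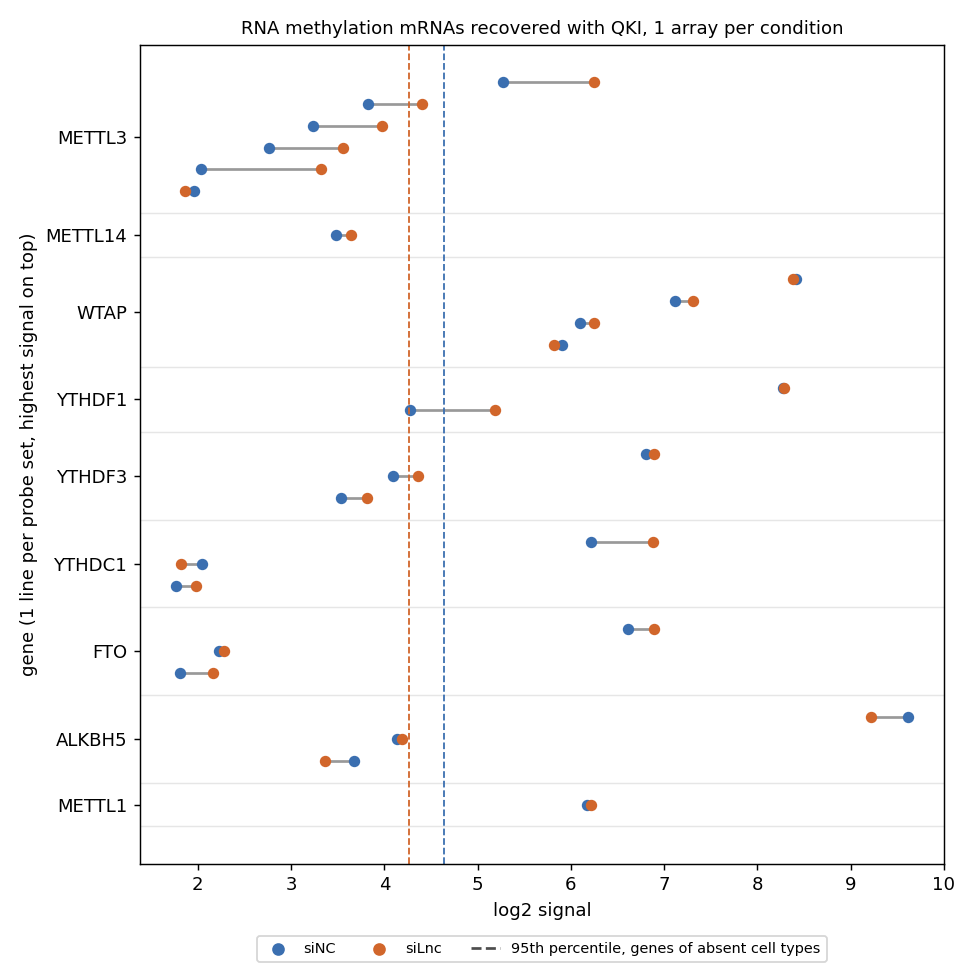
Log2 signal of each of the 26 probe sets on the siNC array (blue) and the siLnc array (orange), grouped by gene. The dashed lines mark the background limits, 4.64 in siNC and 4.26 in siLnc. 5 of the 6 METTL3 lines run from siNC up to siLnc, while the 4 of WTAP are short and ALKBH5 runs downward in its brightest probe set.

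METTL3, the catalytic subunit of the m6A writer, had the largest difference of the group. Its brightest probe set went from 5.27 in siNC to 6.25 in siLnc, a difference of 0.98 that is just short of 2-fold. It is the only METTL3 probe set that lay above the background limits on both arrays, and its suffix (x) denotes probes that may also bind other transcripts. Of the other 5, 4 were higher in siLnc as well. These had 3.82 and 4.40 (0.58), 3.23 and 3.98 (0.75), 2.76 and 3.56 (0.80), and 2.03 and 3.32 (1.29). The last of these was the single 2-fold call, and both of its signals lay below the background limits. The sixth probe set, at 1.96 and 1.86, differed by -0.10. The mean over the 6 was 0.72, and 2.37% of all genes had a larger mean.

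METTL3 was also set against probe sets of like signal. Among the 500 probe sets nearest in mean signal to its brightest one, the median difference was 0.13 and 3.8% had a larger difference than 0.98. The other 4 higher probe sets did not pass the background limits on both arrays, so their ranks describe differences measured against background. For the probe set at 1.29 the corresponding median was -0.14 and 1 of the 500 (0.2%) had a larger difference. For the remaining 3 the shares were 3.8%, 4.8% and 11.6%. The spread inside the gene was wide too. The differences of METTL3 spanned 1.39, while the median span over the 498 genes with 6 probe sets was 0.62 and 2.41% of them spanned more. Over the alternatives tried for processing, the METTL3 value ran from 0.64 without probe sets that may bind other transcripts to 0.98 with its brightest probe set alone.

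METTL14, the RNA-binding partner of METTL3, was read by 1 probe set, at 3.48 in siNC and 3.64 in siLnc. Both signals lay below the background limits, so the difference of 0.16 was measured against background. WTAP, the subunit that localises the complex, was read by 4 probe sets, all above the limits on both arrays. Their signals in siNC and siLnc were 8.41 and 8.38, 7.12 and 7.31, 6.10 and 6.25, and 5.90 and 5.82. Of these, 2 were higher and 2 lower in siLnc, by at most 0.19, and the mean was 0.06. The span of 0.27 was narrow, since 78.3% of the 1782 genes with 4 probe sets spanned more. WTAP had more probe sets at clear signal than any other member. The gene means of the 3 subunits were thus 0.72 for METTL3, 0.16 for METTL14 and 0.06 for WTAP, and whether they differ from each other could not be tested.

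**Figure D2:**
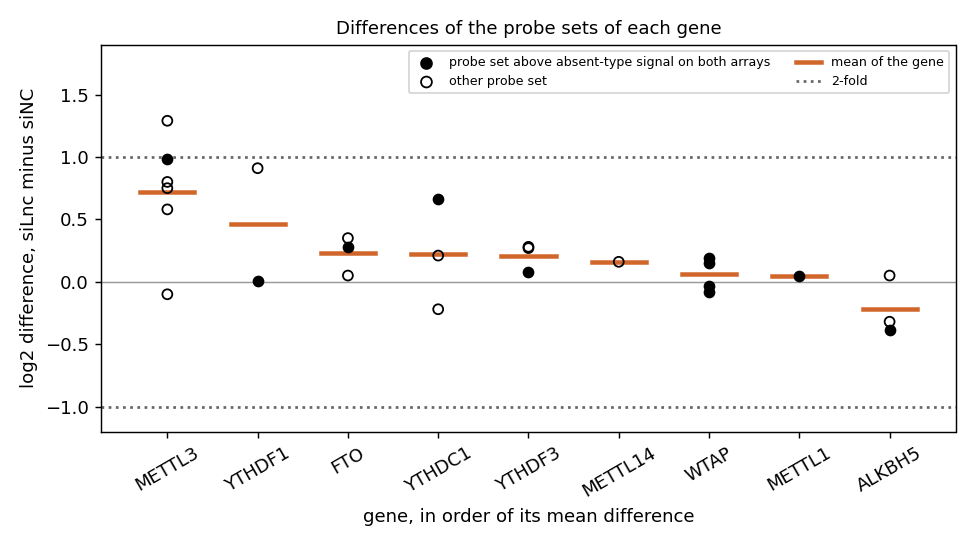
Log2 difference (siLnc minus siNC) of every probe set of the 9 genes, in order of the gene mean (orange bar). Filled points lay above the background limits on both arrays, open points did not, and the dotted lines mark 2-fold. 1 open point, of METTL3, lies beyond 2-fold, and the filled point of METTL3 at 0.98 lies just under it.

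Among the readers, YTHDF1, a cytoplasmic reader linked to translation of m6A-bearing mRNA, had the second-highest mean, 0.46, but its 2 probe sets did not give the same picture. The brighter one had 8.27 in siNC and 8.28 in siLnc, a difference of 0.01, but its suffix (s) denotes probes shared between transcripts. The dimmer one had 4.28 and 5.19, a difference of 0.91, from a siNC signal below the limit of 4.64. Among the 4739 genes with 2 probe sets the median gap between them was 0.20, and 1.94% had a gap wider than the 0.90 of YTHDF1. The value of YTHDF1 was therefore 0.01 or 0.91 depending on the probe set, and the mean of 0.46 describes neither.

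YTHDF3, a cytoplasmic reader that acts together with the other YTHDF proteins, was higher by small amounts in all 3 of its probe sets. The signals were 6.81 and 6.89 (0.08), 4.09 and 4.36 (0.27), and 3.53 and 3.81 (0.28), with a mean of 0.21. The brightest, also of suffix s, differed by less than the median of its neighbours in signal (0.20). YTHDC1, the nuclear reader, which takes part in splicing and export of methylated mRNA, had 6.22 in siNC and 6.88 in siLnc in its brightest probe set. This difference of 0.66, or 1.58-fold, was the second largest among member probe sets above the background limits on both arrays, and 9.6% of the 500 probe sets nearest in signal had a larger one. The other 2 probe sets of YTHDC1 lay near 2 on both arrays, at 2.04 and 1.82 (-0.22) and at 1.77 and 1.98 (0.21), where no signal stands clear of background. The mean over the 3, 0.22, thus averages 1 probe set at clear signal with 2 at background. It was 0.66 once dim probe sets were left out, and -0.01 without the brightest, whose suffix (s) denotes probes shared between transcripts.

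The erasers lay on opposite sides of 0. FTO was the first m6A demethylase to be described. Its brightest probe set, of suffix x, had 6.61 in siNC and 6.89 in siLnc, a difference of 0.28. Its other 2 probe sets, at 2.23 and 2.28 (0.05) and at 1.81 and 2.16 (0.35), lay at background, and the mean was 0.23. ALKBH5, the nuclear m6A demethylase, was the member with a mean below 0 (-0.22). Its brightest probe set had 9.61 in siNC and 9.22 in siLnc, a difference of -0.39, and 93.8% of the 500 probe sets nearest in signal had a higher difference. The other 2 had 4.14 and 4.19 (0.05) and 3.68 and 3.36 (-0.32), below the limits on both arrays. Without probe sets that may bind other transcripts, a single dim one was left and the value was 0.05, so the lower value of ALKBH5 depends on those probe sets. In fold terms the brightest probe set of ALKBH5 in siLnc was at 0.76 of its siNC value, far from the 2-fold threshold.

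METTL1, the m7G writer, was read by 1 probe set, with 6.17 in siNC and 6.22 in siLnc. The difference of 0.05 was below the median of its 500 neighbours in signal (0.16). Both signals lay above the limits, so METTL1 mRNA was measured here at a clear signal and differed by 1.04-fold between the 2 precipitates.

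When the count was restricted to the 11 member probe sets above the background limits on both arrays, which came from 8 genes, 8 were higher and 3 lower in siLnc, with a median difference of 0.08. Over the 16199 probe sets of the array above the same limits the median was 0.10 and 59.3% lay above 0. The members as a group were thus close to the array as a whole at clear signal, and METTL3 (0.98) and YTHDC1 (0.66) at the top and ALKBH5 (-0.39) at the bottom were its extremes. Most of these member probe sets, the extremes included, carried the suffix s or x and may also bind other transcripts. The exceptions were that of METTL1 and the brightest and dimmest of WTAP. By signal, the 4 member probe sets below 2 had a median of 0.06 against -0.10 over the array. The 7 member probe sets between 2 and 4 had a median of 0.28, while the median of all 17198 probe sets there was -0.12. The 6 between 4 and 6 had 0.43 against 0.07. The 6 between 6 and 8 had 0.17 against 0.16, and the 3 above 8 had -0.03 against 0.09. The medians of the member probe sets thus lay above those of the array at signals below 6, where most of them did not pass the background limits. At higher signals they lay close to or below those of the array. METTL3 alone gave the values 0.75, 0.80 and 1.29 between 2 and 4, and 0.98 and 0.58 between 4 and 6. Probe sets of 1 gene are not separate members, so these medians do not describe the group of genes.

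**Figure D3:**
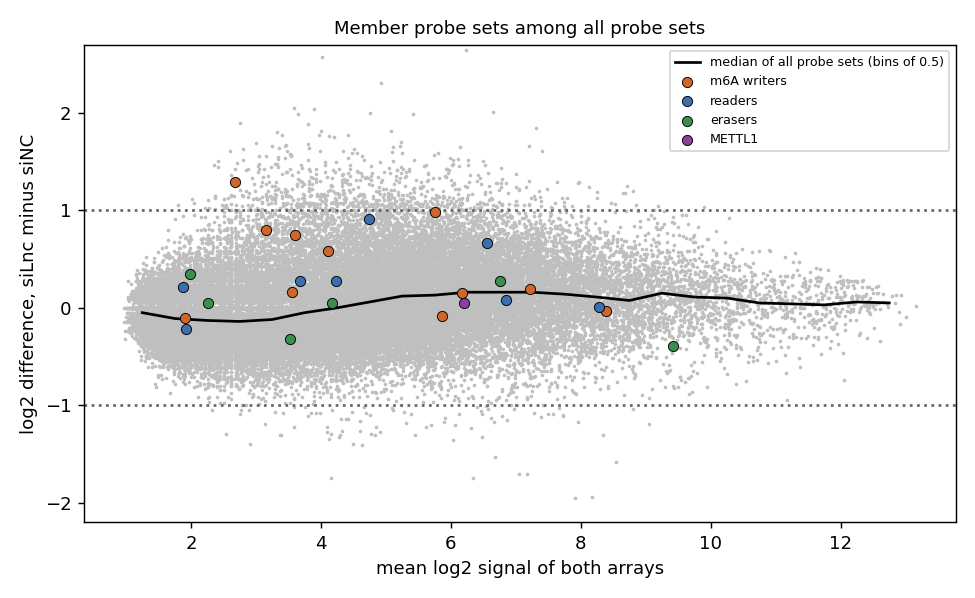
Difference of each probe set (log2, siLnc minus siNC) against its mean log2 signal, with all probe sets in grey, their running median as a line and the members coloured by role. The axis leaves out 10 grey probe sets with larger differences. Members above a mean signal of 6 lie around the line except YTHDC1 at 0.66 and ALKBH5 at -0.39.

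Genes that act beside the members were described from 8 lists made by role. Over all of them, 51 of 54 genes were measured, 42 lay above 0, and the median difference was 0.25 (0.19 to 0.29 over the alternatives). After cyclic loess or quantile normalization 37 of the 51 lay above 0. Of the 51, 1 gene (NSUN2) was 2-fold higher and 0 were 2-fold lower, against 0.651% and 0.121% of all genes. In the members' signal band 1.41% of genes were 2-fold higher. NSUN2, which writes 5-methylcytosine (m5C) in tRNA and mRNA, had a mean signal of 5.21 in siNC and 6.27 in siLnc. Its 4 probe sets were all higher, by 0.83 to 1.35, and the brightest, at 7.67 and 8.50, differed by 0.83. The mean of 1.06 was just short of 2-fold after cyclic loess (0.98) and quantile normalization (0.95), and the call was also lost with its 2 probe sets above the background limits (0.97) and with the brightest alone (0.83).

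Of the other subunits of the m6A writer complex, 3 of 5 lay above 0 and the median was 0.07. This median depended on dim probe sets, being 0.32 with the filter at the array median and 0.38 both with the brightest probe set of each gene and above the background limits. RBM15, which helps to choose the sites of methylation, had 0.43 over 5 probe sets, with 6.50 in siNC and 7.12 in siLnc in the brightest. All 5 had the suffix s or x, and only the brightest passed the background limits on both arrays. The ubiquitin ligase CBLL1 had 0.27, from differences of 0.61 and -0.08 in probe sets that did not pass the background limits on both arrays. RBM15B, the paralogue of RBM15, had -0.11. Among 5 further genes of m6A methyltransferases 3 lay above 0, with a median of 0.06 that turned to -0.05 after cyclic loess and -0.03 after quantile normalization, and ran from -0.08 to 0.10 over all the alternatives. TRMT112, the partner that stabilises METTL5 and several other methyltransferases, had 0.43, with both probe sets well above background but of suffix s or x. PCIF1, which methylates adenosine next to the cap, had -0.34 with all 3 probe sets below 0 (-0.45 to -0.20). Of these, only the one at -0.20 passed the background limits on both arrays. The remaining AlkB family members had a median of 0.03 over 7 genes, 5 of them above 0, and of -0.04 and -0.08 after those scalings and 0.15 without probe sets of suffix s or x. ALKBH1, a demethylase of tRNA, had 0.69 from differences of 1.08 and 0.30, both from siNC signals below the limit, and ALKBH6 had 0.29.

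The other reported m6A readers had a median of 0.38 over the 7 of 8 measured, with 5 above 0 (0.29 to 0.41 over the alternatives). IGF2BP1, which binds and stabilises m6A-bearing mRNA, had 0.85. Its brightest probe set had 6.15 in siNC and 7.11 in siLnc (0.96). The other 2 differed by 0.44 and 1.15 but did not pass the background limits on both arrays. The paralogues of IGF2BP1 were not alike, with 0.45 for IGF2BP3, from probe sets of suffix s, and -0.07 for IGF2BP2. In the list of m7G and cap methylation 6 of 7 genes were measured, all above 0 also after each of the 3 other scalings, with a median of 0.33 (0.21 without probe sets of suffix s or x). With the brightest probe set of each gene 5 of 6 lay above 0, as did 5 of 6 above the background limits. CMTR2, which methylates the ribose of the second nucleotide after the cap, had 0.82 over 2 probe sets (0.77 and 0.86), and BUD23, which writes m7G in ribosomal RNA, had 0.52. In BUD23 4 probe sets at clear signal were higher by 0.65 to 1.01, 3 of them with the suffix x, and the dim remaining one (3.75 and 3.17) differed by -0.58. WDR4, the partner of METTL1, had 0.20, but its brightest probe set, at 5.02 and 4.82, was lower by -0.20.

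For m5C the median was 0.27 over 8 of 9 genes, 7 of them above 0. With the brightest probe set of each gene 6 of 8 lay above 0, and above the background limits 4 of 6 did. After NSUN2 the largest value was that of NSUN5 (0.71), a methyltransferase of ribosomal RNA with pseudogene copies, read by 2 probe sets with the suffix x. The 4 genes of 1-methyladenosine writing lay above 0 (3 of them after cyclic loess or quantile normalization), with a median of 0.25. That median was 0.13 after quantile normalization, 0.12 without probe sets of suffix s or x and 0.38 above the background limits. TRMT10C, a subunit of mitochondrial RNase P, had 0.90 from 2 probe sets of suffix s, the brighter at 4.99 in siNC and 6.05 in siLnc. The value of TRMT6 was 0.38. All 9 genes of ribose methylation lay above 0 (7 after cyclic loess or quantile normalization), with a median of 0.35. MRM3 (0.66) and MRM2 (0.53), which act on mitochondrial ribosomal RNA, and NOP58 (0.53), of the small nucleolar particles that guide methylation, led this list. Counts above 0 are to be read beside the 54.4% of genes in the members' signal band (3.45 to 6.91). That share does not match every list, since genes of the lists also lie outside the band. The m5C genes, for example, ran from 2.29 to 11.16 in siNC. As genes of 1 list also share the same 2 arrays, no list is set apart from the others here.

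**Figure D4:**
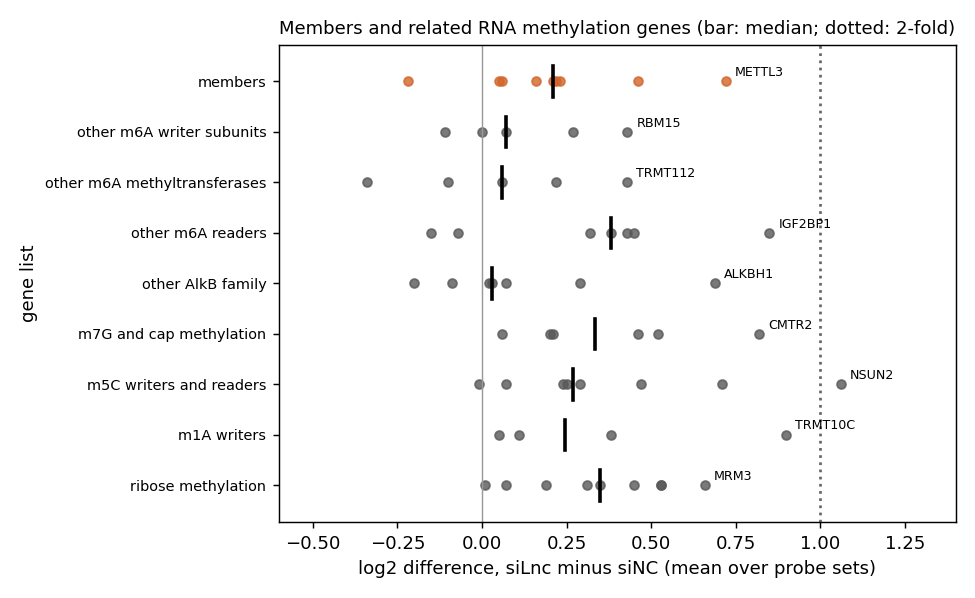
Mean log2 difference (siLnc minus siNC) of each measured gene, for the 9 members (orange) and the 8 related lists (grey), with the median of each list as a bar and the largest gene named. NSUN2 at 1.06 is the gene beyond the dotted 2-fold line.

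The labelled cells were checked by their markers. The epithelial markers EPCAM (9.86 in siNC and 9.68 in siLnc), KRT8, KRT18 and KRT19 were bright on both arrays, and 0 of 12 colorectal epithelial markers were 2-fold changed. CDX2, the intestinal transcription factor, had -0.95, while CDH1, LGALS4, CEACAM5, CDX1, VIL1, GPA33 and KRT20 lay below the background limits as means. None of 9 fibroblast and endothelial markers (siLnc range 1.45 to 2.57) and none of 9 leucocyte markers (siLnc range 1.36 to 4.55) was 2-fold changed. Of 15 measured gland and blood markers, a list drawn from earlier results of these data, 12 were at least 2-fold higher in siLnc. The share over all genes was 0.651%, but as the list was picked from these data the 2 are not compared. Among the 12 were BPIFA1 (3.26 in siNC and 10.09 in siLnc), STATH (1.88 and 8.14), LYZ (2.40 and 7.38) and HBB (2.99 and 5.67). The median log2 signal over the 15 was 2.60 in siNC (range 1.55 to 5.64) and 5.67 in siLnc (range 1.29 to 10.09), and the 3 others, HTN1 and MUC7 of salivary glands and ALAS2 of red cell precursors (3.47 and 3.02, a difference of -0.44), lay below the background limits on both arrays. The part of such RNA in the values of METTL3, YTHDC1 and the other members was not tested. Input RNA and IgG precipitates were not analysed here, so the share of an mRNA bound by QKI and the total amount of that mRNA cannot be told apart, nor can fewer cells of a type and less RNA per cell.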

How the data were processed

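For 2 PrimeView arrays of RNA precipitated with anti-QKI antibody, the authors deposited log2 signals, 1 value for every probe set and array. GCOS is named in the submitters' processing notes. For background correction, summarisation and scaling of these signals, the method was not given in the sources used here. Once sorted, the arrays differed by at most 0.19 at any rank, so a shift of all mRNAs together may have been removed. That the values are log2 was taken from their range.

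Of 49371 rows, 79 control rows were left out. Symbols came from the platform annotation: 44988 probe sets had 1 symbol, 1832 several and 2472 none. Probe sets of 1 gene were averaged, and the call threshold was 2-fold. No test was run. The members and gene lists were chosen with earlier results of these data known. Named genes were all members and, of each related list, those called and the 2 with the largest absolute differences, with paralogues, partners and markers added for context after their values were seen.

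Other scalings tried were median centring, quantile normalization and cyclic loess (limma 3.58.1, R 4.3.3), and the other choices a filter at the array median, the brightest or the median probe set of a gene, leaving out probe sets with the suffix s or x, thresholds of 1.5-fold and 3-fold, and a limit of 3 robust SDs set from the 500 closest probe sets by signal. Other alternatives, namely a filter at the signal of absent cell types and the alternatives for the related lists, were added after the data were seen. Other steps used Python 3.11.15 with pandas 2.3.3 and numpy 2.4.6. The counting was tested on simulated data with shifts well past the threshold, so calls near it were not tested.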

Additional observations from a re-analysis of the deposited data

How the results depend on the processing

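No paired analysis was possible because there was 1 array per condition. The count of member genes at least 2-fold higher was 0 under 9 of 10 alternatives and 1 (METTL3) at a threshold of 1.5-fold, and the count of lower genes and lower probe sets was 0 under every alternative run. The count of member probe sets at least 2-fold higher was 2 after median centring, 6 at 1.5-fold, and 0 at 3-fold and above the signal of absent cell types on both arrays. It was 1 with 3 robust SDs of the nearest probe sets, where 1.13% of all probe sets were called higher. The median of the members was 0.08 with the brightest probe set of each gene and 0.07 above the signal of absent cell types, where METTL14 had no probe set left. Of the related genes, 0 were 2-fold higher after cyclic loess or quantile normalization, at 3-fold and above the signal of absent cell types, 2 with the filter at the array median (ALKBH1 and NSUN2), 2 with the brightest probe set (ALKBH1 and TRMT10C) and 7 at 1.5-fold. Apart from the setting of 3 robust SDs, the shares of all genes and probe sets under these alternatives are not given here. The counts under them are therefore not read as results about the members or the related genes. Of 71 values of member genes under alternatives, 0 changed a 2-fold call, 49 moved by less than 0.1 and 8 changed sign, which were values of WTAP, METTL1, ALKBH5 and, at -0.01, YTHDC1. The 2 arrays limit the precision of every value, and signals near background limit 15 of the 26 member probe sets.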
